A study of Mus musculus with 7 samples.

Results

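Acid-base transport genes of the mouse kidney were followed as 5 families: the Slc4 bicarbonate transporters, the Slc9 sodium-proton exchangers, the Slc26 anion transporters, the subunits of the vacuolar proton pump (symbols beginning Atp6v0 or Atp6v1) and the carbonic anhydrases (Car with a number). Members were the protein-coding genes of the count table whose symbol fitted these patterns, 69 of 42256 identifiers. They comprised 10 Slc4, 9 Slc9, 11 Slc26, 23 proton pump and 16 carbonic anhydrase genes. The rule reads names and biotype and no measured value.

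Whole-kidney RNA of adult male mice of a mixed 129S1/Sv and C57BL/6 background was sequenced in 7 libraries. There were 4 libraries labelled CDH11-/- (knockout-labelled) and 3 labelled CDH11+/+ (wild-type-labelled), where Cdh11 encodes cadherin-11, a mesenchymal adhesion molecule. Every mouse of both groups had lost 1 kidney and received angiotensin II at 800 ng/kg/min from an osmotic pump, with the remaining kidney taken 4 weeks after surgery. All groups used here are thus of injured kidneys. The labels give neither the construction of the allele nor the ages beyond adult.

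Total counts ran from 72087906 to 84786351 per library, and mitochondrial ribosomal RNA took 10.7 to 13.5% of them in knockout-labelled and 13.5 to 18.2% in wild-type-labelled libraries. Cdh11 was not lower in the knockout-labelled libraries, with 11.3, 9.56, 11.6 and 11 CPM (counts scaled to the size of the library) against 6.79, 4.52 and 10.8 CPM in wild-type-labelled ones (log2 fold change 0.56, adjusted p = 0.14, edgeR). Without CDH11+/+ replicate 3 it was called higher (adjusted p = 0.0043, edgeR). A lower count of the targeted gene under the CDH11-/- label was thus not seen. The allele and the exons counted are not given, so this count cannot settle whether the labels are right. Each direction below refers to libraries as they were labelled. Libraries are also called CDH11-/- replicate 1 to 4 and CDH11+/+ replicate 1 to 3. Whether a replicate is 1 mouse or a pool is not stated, so p-values measure the spread between these samples. Defining markers of the proximal tubule, thick ascending limb and collecting duct were abundant in all 7 libraries, as a kidney label requires, and those of muscle summed to at most 0.335 CPM.

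The kidney keeps blood pH steady by reclaiming filtered bicarbonate in the proximal tubule and by secreting acid or base in the collecting duct. Protons leave proximal cells through sodium-proton exchangers and the proton pump, carbonic anhydrases interconvert carbon dioxide and bicarbonate, and a sodium-bicarbonate cotransporter returns bicarbonate to blood. In the collecting duct, type A intercalated cells secrete protons with the pump and export bicarbonate through the exchanger AE1, while type B cells secrete bicarbonate through pendrin.

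By level per length (TPM, computed here from counts over the union of annotated exons), the most abundant member was Slc4a4, with 169 ± 11.5 TPM (SD, n = 4) in knockout-labelled and 129 ± 25.5 TPM (SD, n = 3) in wild-type-labelled kidneys. The pump subunit Atp6v1a followed with 105 ± 8.05 and 88.3 ± 5.69 TPM, and Car2 with 104 ± 1.93 and 83.4 ± 13.9 TPM, in the same order of groups. Atp6v1a and Car2 were neighbours in this order that did not differ beyond their spread. Next came Atp6v1f, at 91.5 ± 4.53 and 85.9 ± 5.2 TPM, and Atp6v1g1, at 81.2 ± 7.33 and 78.2 ± 12.6 TPM. TPM lacks the library scaling factors used for CPM, so these values rank genes and do not give a direction between groups. In CPM, Atp6v1g1 averaged 63.2 ± 4.54 and 64 ± 5.52 in the same order of groups. At the other end, Car6 and Car10 had no count in any library.

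Of the 69 members 62 passed the low-count filter and were tested, and 7 (Slc4a10, Slc26a5, Slc26a9, Atp6v1e2, Car1, Car6 and Car10) were not. In the knockout-labelled libraries 14 members rose and 6 fell at an adjusted p under 0.05 (edgeR's quasi-likelihood test, Benjamini-Hochberg over all 17964 genes tested). Among all genes tested 29.7% were called (16.8% higher and 12.9% lower), and among the members 32.3% (22.6% and 9.68%), a share near the background. The median log2 fold change was 0.11 over the members and -0.01 over all genes. The number of members that rose was 9 without CDH11-/- replicate 2 or 4, 8 without CDH11+/+ replicate 1 and 7 without CDH11+/+ replicate 2. The number that fell was 3 and 1 without CDH11-/- replicates 2 and 3, and 1, 2 and 10 without CDH11+/+ replicates 1, 2 and 3.

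**Figure D1:**
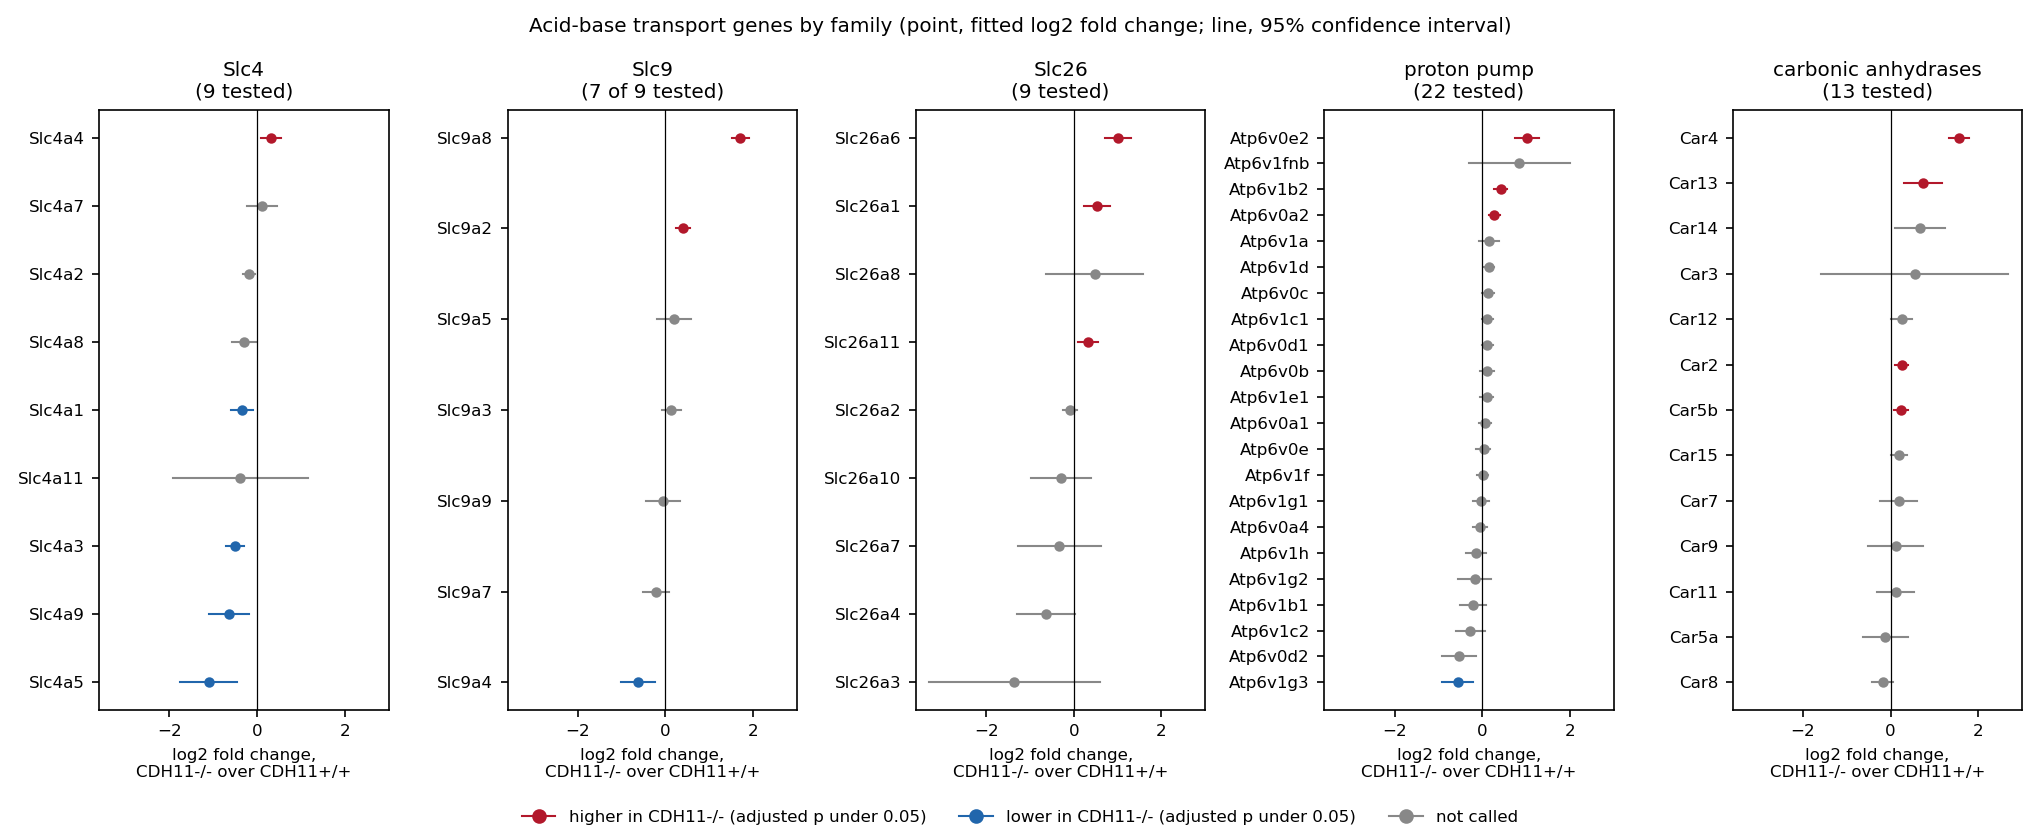
Fitted log2 fold change of knockout-labelled (CDH11-/-) over wild-type-labelled (CDH11+/+) kidneys for 60 of the 62 tested members, in a panel per family, with 95% confidence intervals from 4 and 3 libraries. Red points were called higher (13), blue points lower (6) and grey points were not called; Slc9a8 and Car4 lie farthest to the right, at 1.71 and 1.57, and the Slc4 panel holds 4 of the 6 blue points.

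Sodium-proton exchangers gave the highest fold change of the members. Slc9a8 encodes NHE8, an exchanger of Golgi and endosomal membranes that also works at the apical border of proximal tubule cells. Its 4 knockout-labelled libraries held 162, 147, 156 and 132 CPM and its wild-type-labelled ones 48, 45.8 and 42.9 CPM. The lowest knockout-labelled value was thus well above the highest wild-type-labelled value. The difference was 3.27-fold (log2 fold change 1.71, SE 0.08, adjusted p = 1.13e-05, edgeR) and was called in all 15 alternative analyses, with a log2 fold change from 1.56 to 1.77. Slc9a8 (ENSMUSG00000039463) lies on mm10 chromosome 2, from 167421712 to 167477000 on the plus strand.

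The upstream promoter sequence of this gene is shown with that of Car4, since these are the members with the largest rises, and with those of the pump genes Atp6v1b1 and Atp6v1g3, as a contrast from intercalated cells. Each is the 250 bases before a RefSeq start on GRCm38.p6, plus strand, in lower case, with capitals marking TGTTTAC, a forkhead factor motif searched on both strands. The windows are chr2:167421460-167421709, chr11:84957504-84957753, chr6:83742767-83743016 and chr1:138273488-138273737, in the order of the lines.
Slc9a8: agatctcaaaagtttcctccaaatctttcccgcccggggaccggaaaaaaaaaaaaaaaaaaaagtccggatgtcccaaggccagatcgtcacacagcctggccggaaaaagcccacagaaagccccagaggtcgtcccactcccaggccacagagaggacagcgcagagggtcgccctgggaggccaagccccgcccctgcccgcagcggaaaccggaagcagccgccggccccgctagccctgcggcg
Car4: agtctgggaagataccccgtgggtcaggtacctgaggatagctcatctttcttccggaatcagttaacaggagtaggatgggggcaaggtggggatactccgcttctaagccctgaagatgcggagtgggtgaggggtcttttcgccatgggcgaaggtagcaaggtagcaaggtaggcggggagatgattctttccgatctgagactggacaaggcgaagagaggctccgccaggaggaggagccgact
Atp6v1b1: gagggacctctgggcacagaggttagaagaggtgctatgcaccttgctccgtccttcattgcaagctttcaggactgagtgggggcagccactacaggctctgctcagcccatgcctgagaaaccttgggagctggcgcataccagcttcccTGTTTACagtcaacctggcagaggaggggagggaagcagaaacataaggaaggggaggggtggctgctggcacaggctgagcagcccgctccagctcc
Atp6v1g3: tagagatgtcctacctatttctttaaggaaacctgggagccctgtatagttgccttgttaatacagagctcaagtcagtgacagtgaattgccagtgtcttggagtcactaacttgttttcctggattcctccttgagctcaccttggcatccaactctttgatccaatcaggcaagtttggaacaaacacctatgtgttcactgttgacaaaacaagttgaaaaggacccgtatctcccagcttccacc
In these windows TGTTTAC occurred once, before Atp6v1b1, whose dependence on the forkhead factor Foxi1 in intercalated cells is known from mice. Over all 32851 mouse promoters of the same length 3.17% held it, and over the 59 promoters listed for 48 members 5.1% did (Atp6v1b1, Car5a and Slc26a1). The E-box CACGTG, the core of the sites bound by the lysosomal regulator TFEB, was in 8.5% of member promoters and 6.02% of all. A longer palindromic site around that core (CLEAR) and the androgen response element were also searched, and were in 0 of 59 member promoters and in 0.24% and 0.01% of all. These matches describe letters in the window and no binding.

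Other members of the family moved less. Slc9a2, the NHE2 exchanger of distal apical membranes, had 52.4, 60.9, 56 and 62.5 CPM in knockout-labelled libraries, against 42.7, 43.1 and 46.2 CPM in wild-type-labelled ones. The groups did not overlap, and the rise of 1.32-fold (SE 0.07 on the log2 scale, adjusted p = 0.00411, edgeR) was called in all 15 alternatives. Its neighbour on chromosome 1, Slc9a4, encodes the basolateral NHE4 of the thick ascending limb and fell by 0.63 on the log2 scale (SE 0.17, adjusted p = 0.023, edgeR). Slc9a4 stood at 2.1, 2.17, 1.47 and 1.93 CPM in knockout-labelled kidneys and at 3.2, 3.14 and 2.54 CPM in wild-type-labelled kidneys. These adjoining genes, 50 kb apart, therefore moved in opposite directions. The call for Slc9a4 was lost without CDH11-/- replicate 3 or CDH11+/+ replicate 1 or 2 and with the deposited normalized values (adjusted p of 0.0512 to 0.0794, edgeR or limma).

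Slc9a3, the NHE3 exchanger that carries most proximal acid secretion, was not called, at 114 ± 12.6 CPM (SD, n = 4) in knockout-labelled and 104 ± 8.87 CPM (SD, n = 3) in wild-type-labelled kidneys. The 95% interval of its log2 fold change ran from -0.08 to 0.35, so a rise of the size of that in Slc9a8 lies outside it. Slc9a5, Slc9a7 and Slc9a9 averaged under 4 CPM in both groups and were not called.

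Carbonic anhydrases rose in 4 of 13 tested genes (30.8%, against 16.8% of all genes) and fell in 0 (against 12.9% of all genes). The membrane-anchored enzyme Car4, which acts at the surface of proximal and other tubule cells, had 95.2, 123, 120 and 105 CPM in knockout-labelled libraries, against 35.1, 36.8 and 40.5 CPM in wild-type-labelled ones. All 4 values of the first group lay above the 3 of the second by a wide gap. The rise was 2.96-fold (log2 fold change 1.57, SE 0.10, adjusted p = 3.43e-05, edgeR) and was called in all 15 alternatives. Car4 (ENSMUSG00000000805) lies on mm10 chromosome 11, from 84957786 to 84966044 on the plus strand. The number of carbonic anhydrases called higher was 2 without CDH11-/- replicate 2 or 4 or CDH11+/+ replicate 1, and 1 without CDH11+/+ replicate 2.

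The other surface enzymes were not called. Car14, of proximal and thin limb membranes, had 51.8, 56.1, 53.1 and 43.2 CPM in knockout-labelled and 20.8, 30 and 45 CPM in wild-type-labelled libraries. CDH11+/+ replicate 3 lay within the range of the knockout-labelled group, and without it Car14 was called higher (adjusted p = 0.00503, edgeR), while edgeR on all 7 libraries gave 0.68 on the log2 scale (adjusted p = 0.0752). With all 7 it was also called higher by DESeq2 (adjusted p = 0.00669), by limma with voom weights (adjusted p = 0.0142) and on the deposited normalized values (adjusted p = 0.0369, limma), so 4 of 15 alternatives called it. Car12, a basolateral enzyme, averaged 193 ± 23.6 CPM (SD, n = 4) in knockout-labelled and 162 ± 16.3 CPM (SD, n = 3) in wild-type-labelled kidneys, and passed the test only without CDH11-/- replicate 3 (adjusted p = 0.036, edgeR). Car15, a membrane enzyme that mice retain, averaged 52.7 ± 4.49 and 45.9 ± 3.42 CPM in the same groups, and the hypoxia-inducible Car9 5.91 ± 1.42 and 5.45 ± 2.2 CPM.

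Among intracellular enzymes, Car2, the main cytosolic form of tubule cells, had 166, 172, 176 and 177 CPM in knockout-labelled libraries and 138, 140 and 158 CPM in wild-type-labelled ones. This was a rise of 1.19-fold without overlap (SE 0.07 on the log2 scale, adjusted p = 0.0223, edgeR). Car13, another cytosolic form, had 2.66, 1.97, 2.04 and 2.83 CPM against 1.43, 1.2 and 1.61 CPM (1.68-fold, adjusted p = 0.0176, edgeR). Mitochondrial Car5b had 39, 38.2, 38.3 and 42 CPM in knockout-labelled kidneys and 35.3, 34.5 and 30.6 CPM in wild-type-labelled kidneys (1.18-fold, adjusted p = 0.0313, edgeR). These 3 rises were small beside that of Car4 and lost their call on omission of some libraries. For Car2 this was so without CDH11-/- replicate 2, 3 or 4 or CDH11+/+ replicate 1 or 2 (adjusted p of 0.0542 to 0.0952, edgeR), and for Car13 without CDH11+/+ replicate 1 or 2 (adjusted p = 0.057 and 0.0579, edgeR). For Car5b the call was lost without any 1 library except CDH11+/+ replicate 1 (adjusted p of 0.052 to 0.0897, edgeR).

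Car1, Car2, Car3 and Car13 lie side by side on chromosome 3, with gaps of 103, 55 and 14 kb in the order Car13, Car1, Car3 and Car2. Car3, a low-activity enzyme abundant in muscle and fat, varied more between libraries than between groups. Values were 6.19, 28.3, 27.1 and 4.01 CPM in knockout-labelled libraries and 5.74, 5.78 and 21.8 CPM in wild-type-labelled ones. Thus 2 knockout-labelled libraries and 1 wild-type-labelled library were high, and the log2 fold change of 0.56 had an SE of 0.88. The 5 adipose markers summed to 12.3 to 18.8 CPM in knockout-labelled and 13.7 to 20.5 CPM in wild-type-labelled libraries, nearly all of it Fabp4, with the defining marker Adipoq at 0 in every library. The 5 muscle markers summed to 0.106 to 0.213 CPM in knockout-labelled and 0.0709 to 0.335 CPM in wild-type-labelled libraries. Car8, which lacks enzyme activity, averaged 4.75 ± 0.39 CPM (SD, n = 4) and 5.37 ± 0.339 CPM (SD, n = 3) and was not called.

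The vacuolar pump is a rotary machine in which a cytosolic V1 sector burns ATP and a membrane V0 sector carries protons. It serves endosomes and lysosomes in all cells and the plasma membrane of intercalated cells, which use their own isoforms of several subunits. Of 22 tested pump genes 3 rose and 1 fell, a lower share (18.2%) than in all genes (29.7%), without a test of that difference. All 3 that rose were listed here among the 15 broadly expressed subunits, and the 1 that fell is an intercalated cell isoform. That split depends on the list, since Atp6v0e2, 1 of the 3, is the alternative form of its subunit. The number that rose was 3 without any single library, and the number that fell was 0 without CDH11-/- replicate 1, 3 or 4 or CDH11+/+ replicate 1 or 2, and 5 without CDH11+/+ replicate 3.

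Atp6v0e2, an alternative form of the small e subunit of V0, had 21, 25.2, 24.9 and 22.8 CPM in knockout-labelled libraries, against 11.8, 9.55 and 13.3 CPM in wild-type-labelled ones. The groups stood clear of each other, at 2.03-fold (log2 fold change 1.02, SE 0.12, adjusted p = 0.000411, edgeR). Atp6v1b2, the B subunit found in most cells, had 227, 233, 227 and 210 CPM against 170, 176 and 158 CPM (1.34-fold, adjusted p = 0.00195, edgeR). Atp6v1b2 overlaps the body of Slc18a1 on the opposite strand, a gene that rose by 1.48 on the log2 scale to 130 ± 10.3 CPM, against 46.6 ± 0.887 CPM. The pair share 0 annotated exon bases, and the part of Slc18a1 reads in the Atp6v1b2 counts was not tested. Atp6v0a2, the a subunit of Golgi and endosomes, had 76.1, 78.3, 78.8 and 82.1 CPM in knockout-labelled kidneys, against 62.4, 64.9 and 67 CPM in wild-type-labelled kidneys (1.22-fold, adjusted p = 0.00528, edgeR). These 3 calls held in all 15 alternatives.

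The partner isoforms of these subunits did not pass the test. For the e subunit, Atp6v0e averaged 51.3 ± 1.85 CPM (SD, n = 4) in knockout-labelled and 50.4 ± 4.14 CPM (SD, n = 3) in wild-type-labelled kidneys. The neuronal and general a1 isoform, Atp6v0a1, averaged 50.3 ± 2.2 and 48.4 ± 1.92 CPM in the same groups. The kidney isoform of the a subunit, Atp6v0a4, averaged 203 ± 6.85 and 211 ± 15.9 CPM. Its log2 fold change of -0.05 had a 95% interval from -0.21 to 0.10.

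The remaining broadly expressed subunits moved little and were not called in the main fit. The catalytic subunit Atp6v1a averaged 435 ± 25.2 CPM (SD, n = 4) in knockout-labelled and 389 ± 57.2 CPM (SD, n = 3) in wild-type-labelled kidneys, and the proteolipid Atp6v0c 174 ± 4.31 and 158 ± 9.74 CPM. Log2 fold changes of the other broadly expressed V1 subunits were 0.12 (Atp6v1c1), 0.15 (Atp6v1d), 0.10 (Atp6v1e1), 0.01 (Atp6v1f), -0.02 (Atp6v1g1) and -0.15 (Atp6v1h), and those of V0 were 0.11 (Atp6v0b) and 0.12 (Atp6v0d1). Reads of Atp6v0c may be shared with the pseudogene Atp6v0c-ps2, which was counted at 44.1 ± 3.48 and 45.9 ± 4.83 CPM. Atp6v1fnb, named for its place next to Atp6v1f and not a subunit, was near 0, at 0.149 ± 0.0726 and 0.0815 ± 0.0132 CPM.

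Tissue-restricted isoforms, most of them tied to intercalated cells, had a median log2 fold change of -0.24 over 6 tested genes (range -0.56 to -0.05), with 1 called. Atp6v0e2 was not placed in this list. Atp6v1g3, the kidney form of the G subunit, fell by 0.56 on the log2 scale (SE 0.16, adjusted p = 0.0269, edgeR). Its values were 13.2, 14.2, 10.6 and 13.1 CPM in knockout-labelled libraries and 19.8, 22.4 and 14.2 CPM in wild-type-labelled ones. CDH11+/+ replicate 3 thus met the top of the knockout-labelled range. The call was lost without CDH11-/- replicate 1, 3 or 4 or CDH11+/+ replicate 1 or 2 (adjusted p of 0.0508 to 0.0888, edgeR). In bulk tissue, fewer cells of a type and less RNA per cell cannot be told apart.

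Atp6v0d2, a d subunit of intercalated cells and osteoclasts, missed the threshold with 19.1, 20.8, 14.3 and 18.9 CPM against 27.1, 31.8 and 19.9 CPM (log2 fold change -0.52, adjusted p = 0.0502, edgeR), and 7 of 15 alternatives called it. Atp6v1b1, the B subunit of intercalated cells, had 55.7, 53.9, 48.7 and 55.6 CPM in knockout-labelled and 64.5, 72.8 and 48 CPM in wild-type-labelled libraries. Atp6v1c2 had 9.98, 10.9, 9.31 and 11.2 CPM and 12.5, 15.2 and 9.63 CPM in the same groups. In both genes CDH11+/+ replicate 3 was within or below the knockout-labelled values and the other 2 above them. Without that replicate the adjusted p of Atp6v1b1 was 0.00775, that of Atp6v1c2 0.0169 and that of Atp6v1h 0.0165 (edgeR), and all 3 were then called lower.

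As a description, the share of each alternative isoform in the summed TPM of a subunit pair was set out by library. Atp6v1b1 took 22.9, 21.9, 20.6 and 24.3% of the B subunit transcripts in knockout-labelled libraries, against 31.5, 33.4 and 26.9% in wild-type-labelled ones, so the groups did not overlap. The share of Atp6v0d2 among d subunits was 16.9% ± 1.90 (SD, n = 4) against 24.1% ± 4.17 (SD, n = 3), also without overlap. For Atp6v1g3 among the G pair it was 10.8% ± 0.86 against 15.1% ± 3.54, and for Atp6v1c2 among the C pair 29.0% ± 0.90 against 34.6% ± 4.57. In both of these pairs the groups overlapped, since CDH11+/+ replicate 3 lay within the knockout-labelled ranges of 9.7 to 11.7% and 27.8 to 30.0%. The e subunit ran the other way, with Atp6v0e2 at 41.6% ± 2.41 in knockout-labelled and 26.4% ± 4.62 in wild-type-labelled kidneys. A share also moves with the partner isoform. Levels of Atp6v1b1 overlapped between groups and were not called (log2 fold change -0.21, adjusted p = 0.255, edgeR), while Atp6v1b2 was called higher (0.42). The a subunits were not among these pairs, and Atp6v0a4 averaged 203 ± 6.85 against 211 ± 15.9 CPM. No background of such shares over other genes was computed.

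**Figure D2:**
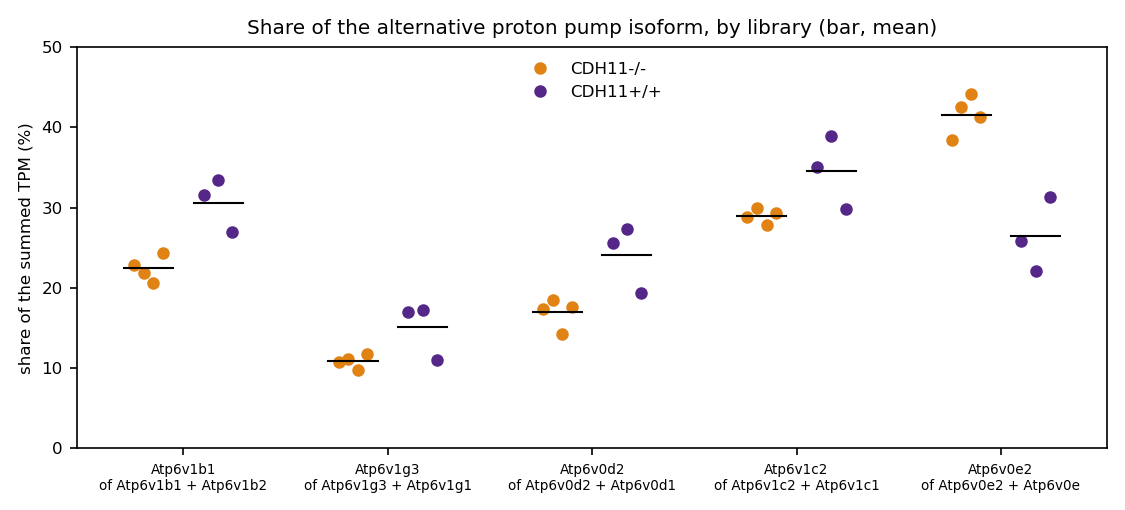
Share, in percent of the summed TPM of a subunit pair, taken by the alternative isoform named on the horizontal axis, for each of 4 CDH11-/- (left, orange) and 3 CDH11+/+ (right, purple) libraries, with bars at the means. The share of Atp6v1b1 was 20.6 to 24.3% against 26.9 to 33.4%, while that of Atp6v0e2 was higher in all CDH11-/- libraries.

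The Slc4 family had 4 of 9 tested genes lower and 1 higher, beside 12.9% and 16.8% of all genes. The number lower was 1 without CDH11-/- replicate 2 or 3 or CDH11+/+ replicate 1, and 2 without CDH11+/+ replicate 2. The genes listed here as its chloride-bicarbonate exchangers lay lower in the knockout-labelled libraries, 3 of 4 called and all 4 without overlap. These counts depend on that list. Among all genes tested 16.6% lay wholly below in this way. Slc4a3, the exchanger AE3 known from heart and brain, had 21.6, 20.5, 17.5 and 21.3 CPM in knockout-labelled libraries, against 26.4, 32.4 and 27.2 CPM in wild-type-labelled ones (log2 fold change -0.50, SE 0.10, adjusted p = 0.00477, edgeR). Its fall was called in all 15 alternatives and was the only one of the 6 falls of which this held. Slc4a1, the AE1 exchanger of type A intercalated cells and red cells, had 20.4, 17, 21.3 and 22.6 CPM against 24.7, 23.3 and 29.4 CPM (log2 fold change -0.34, adjusted p = 0.0431, edgeR). That call was lost in 7 of 15 alternatives, among them the deposited normalized values (adjusted p = 0.345, limma) and the omission of CDH11+/+ replicate 1 or 3 or CDH11-/- replicate 1, 2 or 3. None of the 6 red cell markers was called, and their sum was 526 to 934 CPM in knockout-labelled and 577 to 702 CPM in wild-type-labelled libraries.

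Slc4a9, the AE4 exchanger of type B intercalated cells, had 65.8, 66.1, 48.7 and 60.4 CPM in knockout-labelled kidneys, against 81.7, 128 and 73.7 CPM in wild-type-labelled kidneys. CDH11+/+ replicate 2 was far above the rest, yet no value of one group lay within the other. The log2 fold change was -0.65 (SE 0.20, adjusted p = 0.0416, edgeR), and the call was lost in 8 of 15 alternatives, 6 of them the omission of a library other than CDH11+/+ replicate 3 (adjusted p of 0.0535 to 0.089, edgeR). Slc4a2, the widely expressed AE2, had 60.6, 53.2, 53.4 and 54.6 CPM against 63, 62.5 and 62.4 CPM (log2 fold change -0.18, adjusted p = 0.0588, edgeR), and 7 of 15 alternatives called it lower. Pendrin, Slc26a4, which works at the other face of type B cells, had 57, 54.3, 36.8 and 44.6 CPM and 76, 103 and 45.5 CPM in the same groups. It was not called (log2 fold change -0.64, adjusted p = 0.138), and without CDH11+/+ replicate 3 it was (adjusted p = 0.0186, edgeR).

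**Figure D3:**
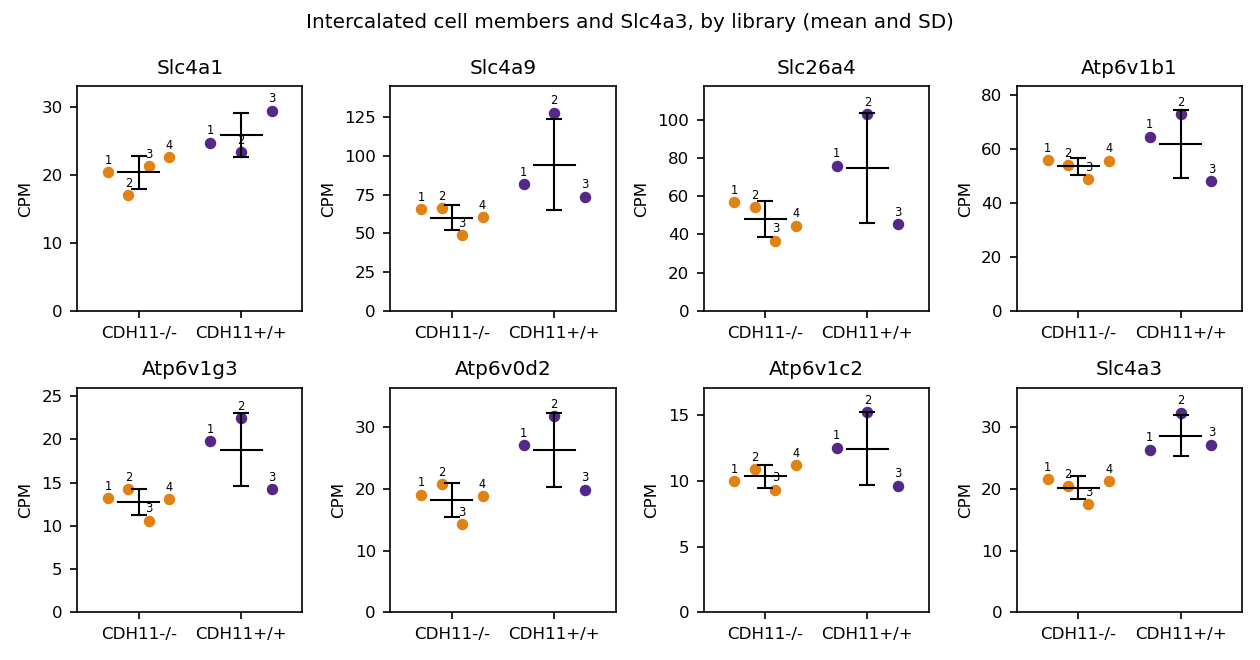
Level in CPM of 7 members of intercalated cells and of Slc4a3 in each of 4 CDH11-/- (left, orange) and 3 CDH11+/+ (right, purple) libraries, numbered by replicate, with mean and SD. CDH11+/+ replicate 2 is the highest library for 6 of the 7 intercalated cell members, and CDH11+/+ replicate 3 the lowest of its group for 6 of them. The 7 were picked by name. Of members not drawn, Atp6v0a4 was lowest of its group in CDH11+/+ replicate 1 (196 CPM). Slc26a7 was lowest in CDH11+/+ replicate 2 (0.642 CPM) and highest in CDH11+/+ replicate 3 (2.05 CPM).

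Sodium-coupled members of the Slc4 family did not move as a block. Slc4a4, the NBCe1 cotransporter that returns bicarbonate to blood from the proximal tubule, had 1187, 1361, 1218 and 1261 CPM in knockout-labelled libraries, against 860, 1035 and 1115 CPM in wild-type-labelled ones. The rise was 1.25-fold without overlap (SE 0.10 on the log2 scale, adjusted p = 0.0368, edgeR), and the call was lost without CDH11-/- replicate 2, 3 or 4 or CDH11+/+ replicate 1 or 2 (adjusted p of 0.0637 to 0.12, edgeR). Slc4a5, the NBCe2 cotransporter, was low and stood 2.14-fold lower (SE 0.29 on the log2 scale, adjusted p = 0.0194, edgeR), with 0.673, 0.503, 0.497 and 0.614 CPM against 1.54, 1.43 and 0.716 CPM. That call was lost without CDH11-/- replicate 2 or 3 or CDH11+/+ replicate 1 or 2 (adjusted p of 0.0502 to 0.082, edgeR). Slc4a7, the NBCn1 cotransporter of the thick limb, averaged 16.8 ± 2.21 CPM (SD, n = 4) and 15.4 ± 3.18 CPM (SD, n = 3), and Slc4a8, a sodium-driven chloride-bicarbonate exchanger, 11.4 ± 1.84 and 14 ± 1.02 CPM. Neither was called, and Slc4a8 was called lower only without CDH11-/- replicate 1 (adjusted p = 0.0134, edgeR). Slc4a11 ranged from 1.5 to 6.14 CPM in knockout-labelled and from 1.62 to 8.46 CPM in wild-type-labelled libraries and was not called.

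Slc26 anion transporters rose in 3 of 9 tested genes (16.8% of all genes did) and fell in 0 (12.9% of all genes did). Slc26a6, an apical exchanger of chloride for oxalate, formate and bicarbonate in the proximal tubule, had 7.19, 8.83, 9.85 and 7.44 CPM in knockout-labelled libraries, against 4.29, 4.01 and 4.09 CPM in wild-type-labelled ones. This 2.02-fold rise (log2 fold change 1.01, SE 0.13, adjusted p = 0.000641, edgeR) left a clear gap between groups and was called in all 15 alternatives. Slc26a1, a basolateral exchanger of sulfate and oxalate for bicarbonate in the same segment, had 181, 161, 117 and 153 CPM against 101, 104 and 112 CPM (1.45-fold, adjusted p = 0.0157, edgeR). Its call was lost without CDH11+/+ replicate 1 or 2 (adjusted p = 0.0677 and 0.0511, edgeR). Slc26a1 shares 141 exon bases, 3.5% of its own, with Idua on the opposite strand, which averaged 6.15 ± 1.26 and 5.15 ± 0.429 CPM, and the strand setting of the counts was not given. The number of Slc26 genes called higher was 1 without CDH11+/+ replicate 1 or 2.

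Slc26a11, a sulfate transporter, had 8.09, 8.47, 8.8 and 8.75 CPM in knockout-labelled and 5.92, 6.86 and 7.7 CPM in wild-type-labelled libraries (1.25-fold, adjusted p = 0.0425, edgeR). The groups were close, and the call was lost in 7 of 15 alternatives, including the omission of any library except CDH11+/+ replicate 3 (adjusted p of 0.0531 to 0.161, edgeR). Slc26a2, the sulfate transporter needed by cartilage, averaged 27.3 ± 1.24 CPM (SD, n = 4) and 28.9 ± 2.09 CPM (SD, n = 3) and was not called. Apart from pendrin, the other 4 tested Slc26 genes averaged under 2 CPM in both groups, and none of them was called.

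**Figure D4:**
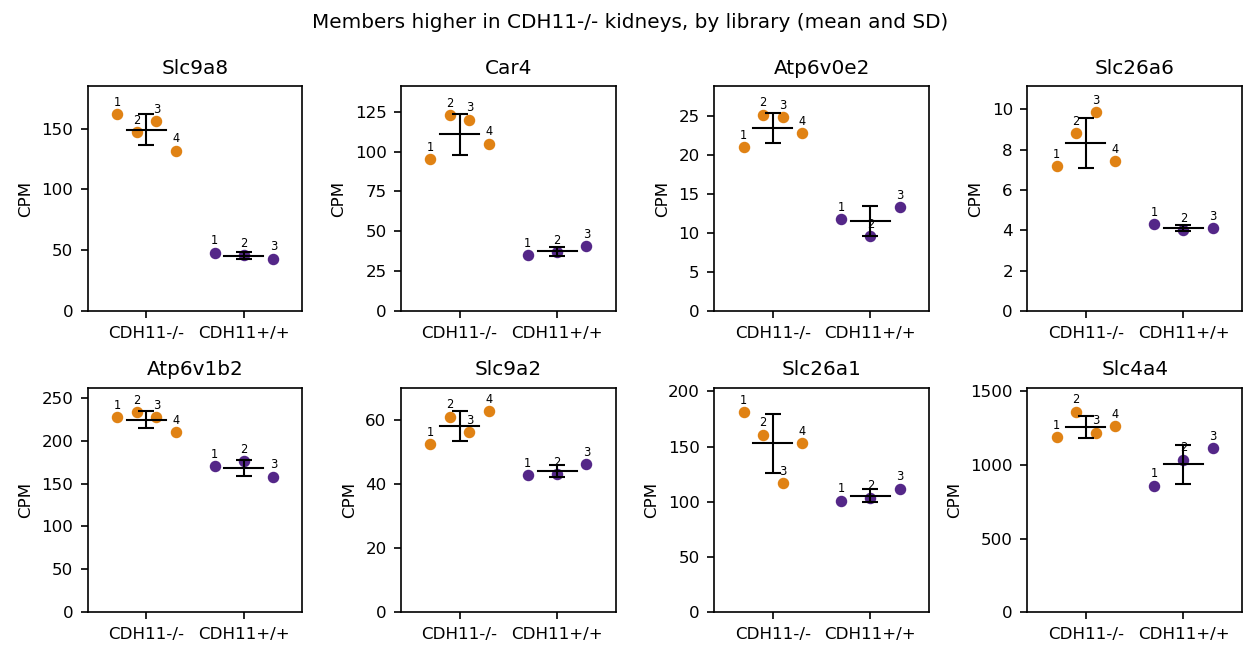
Level in CPM of 8 members that were higher in CDH11-/- kidneys in each of 4 CDH11-/- (left, orange) and 3 CDH11+/+ (right, purple) libraries, numbered by replicate, with mean and SD. The groups do not overlap in any of the 8 panels, with the widest gaps for Slc9a8 (132 to 162 against 42.9 to 48 CPM) and Car4 (95.2 to 123 against 35.1 to 40.5 CPM). The 8 were picked from members called higher, so the lack of overlap follows in part from that choice. Of all genes tested 21.9% lay wholly above in this way.

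Markers of tubule segments, none of them members, are set here beside 16.8% of all genes called higher and 12.9% called lower. Proximal tubule markers summed to 14006 to 15975 CPM in knockout-labelled libraries and 9027 to 10364 CPM in wild-type-labelled ones, with 7 of 10 genes higher and 1 lower, among them Slc34a1 (log2 fold change 1.14, adjusted p = 0.000433), Slc27a2 (0.56, adjusted p = 0.000565) and Miox (1.12, adjusted p = 0.000801, edgeR). Intercalated cell markers summed to 178 to 218 CPM against 194 to 316 CPM, with 0 of 12 higher and 3 lower, namely Tmem213 (log2 fold change -0.33), Rhcg (-0.50) and Dmrt2 (-0.65). CDH11+/+ replicate 2 held the highest value of 9 of these 12 markers and replicate 3 the lowest of its group in 9. The same order was seen in most of the intercalated cell members. That order was not particular to these cells. Principal cell markers summed to 668, 819 and 598 CPM in CDH11+/+ replicates 1, 2 and 3. The broadly expressed Atp6v1a had 404, 438 and 326 CPM there. Thick ascending limb markers did not follow that order, with sums of 4400, 3289 and 3668 CPM. Foxi1, the defining factor of intercalated cells, averaged 15.9 ± 3.51 CPM (SD, n = 4) and 22.6 ± 8.49 CPM (SD, n = 3) and was not called. The part of segment make-up in the members' differences was not tested.

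Other segments were lower in the knockout-labelled libraries in part. Principal cell markers fell in 5 of 8 genes (12.9% of all genes fell), with the lowest adjusted p for Scnn1g (log2 fold change -0.72), Avpr2 (-0.59) and Scnn1a (-0.59), and summed to 475 to 538 CPM against 598 to 819 CPM. Of 7 thick ascending limb markers Kcnj1 fell (-0.67) and Cldn10 rose (0.32), and of 5 distal convoluted tubule markers Slc12a3 fell (-0.78). The other distal convoluted markers were not called and went both ways, with Pvalb at 0.70, Calb1 at 0.32, Trpm6 at -0.45 and Trpm7 at -0.16. The thick limb list summed to 2614 to 3249 CPM in knockout-labelled and 3289 to 4400 CPM in wild-type-labelled libraries, and the distal convoluted list to 1821 to 2358 and 2733 to 3485 CPM. Most of the distal convoluted sum was Slc12a3, which averaged 1415 ± 162 and 2424 ± 386 CPM in the same groups. Macrophage markers rose in 1 of 8, Csf1r (0.85), with sums of 70.8 to 99.1 and 40.8 to 101 CPM. Csf1r averaged 42.8 ± 4.08 and 23.7 ± 8.06 CPM of these sums, and the median log2 fold change of the 8 was -0.21. Of the adipose list the most abundant gene, Fabp4, averaged 16.3 ± 2.76 CPM in knockout-labelled and 16.5 ± 3.32 CPM in wild-type-labelled kidneys.

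**Figure D5:**
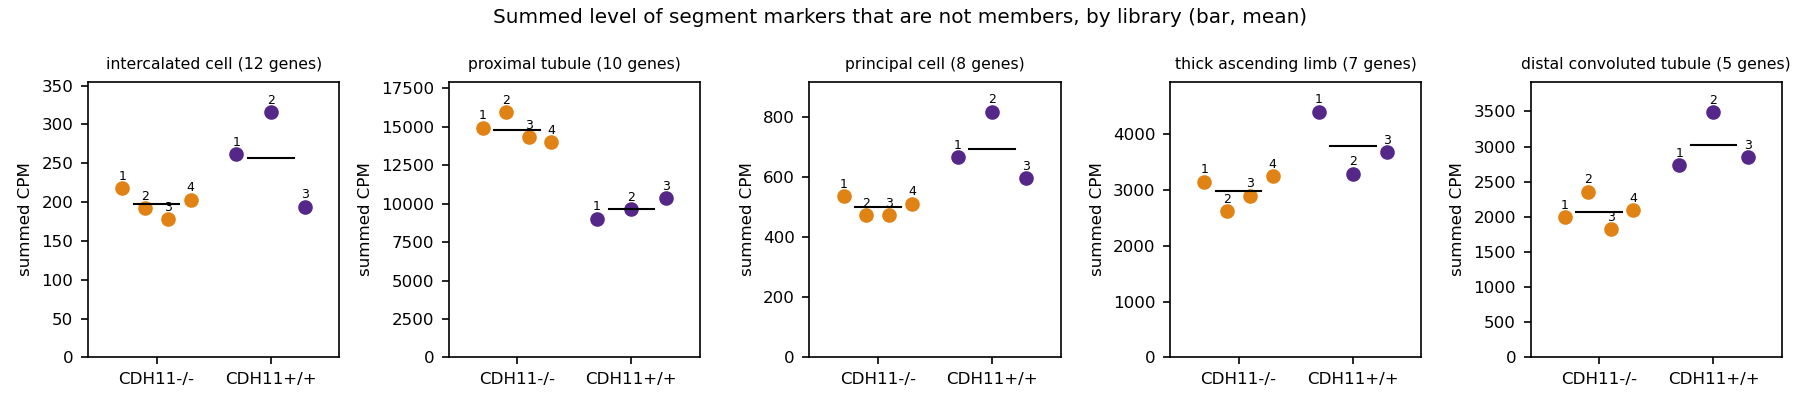
Summed level in CPM of marker lists of 5 tubule segments, none of them members, in each of 4 CDH11-/- (left, orange) and 3 CDH11+/+ (right, purple) libraries, numbered by replicate, with bars at the means. Proximal tubule markers lay higher in all CDH11-/- libraries (14006 to 15975 against 9027 to 10364 CPM), and intercalated cell markers of CDH11+/+ replicate 3 (194 CPM) lay within the CDH11-/- range (178 to 218 CPM).

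Partners of the exchangers changed in both directions. Of 8 scaffolds and regulators 4 rose and 2 fell, against 16.8% and 12.9% of all genes. The scaffold Pdzk1 averaged 786 ± 71.4 CPM (SD, n = 4) in knockout-labelled and 429 ± 45.1 CPM (SD, n = 3) in wild-type-labelled kidneys (log2 fold change 0.87, adjusted p = 0.0004, edgeR). Slc9a3r1, the NHERF1 scaffold that holds NHE3 at the brush border, rose by 0.45 and its relative Slc9a3r2 fell by 0.48 on the log2 scale (adjusted p = 0.000624 and 0.0032, edgeR). The last 2 bear the exchanger's name but are scaffolds, and the rule left them out.

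Ammonia genes, which carry most acid excretion in acidosis, fell in 3 of 6 and rose in 0, where 12.9% of all genes fell and 16.8% rose. The glutamine transporter Slc38a3 averaged 54.1 ± 11.9 CPM (SD, n = 4) in knockout-labelled and 169 ± 14.6 CPM (SD, n = 3) in wild-type-labelled kidneys (log2 fold change -1.64, SE 0.17, adjusted p = 0.000484, edgeR). Glud1, glutamate dehydrogenase, fell by 0.59 and the ammonia channel Rhcg by 0.50 on the log2 scale (adjusted p = 0.00707 and 0.0386, edgeR). Rhcg is also among the intercalated cell markers given above as lower, so these 2 counts share a gene.

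Accessory and assembly factors of the pump rose in 2 of 12 (16.7%, beside 16.8% of all genes) and fell in 0 (12.9% of all genes), a share of rises at the background. They were Wdr7 (log2 fold change 0.26, adjusted p = 0.0132) and Dmxl2 (0.24, adjusted p = 0.0398, edgeR), which together form an assembly factor of V1 on V0. Of 7 tested genes of acid sensing and potassium-coupled proton pumps, the kinase gene Ptk2b rose by 0.25 and the pump gene Atp4a fell by 0.52 on the log2 scale (adjusted p = 0.0186 and 0.00507, edgeR). Car7, Slc9a5 and Atp6v0d1 lie within 10 Mb of Cdh11 on chromosome 8, and none of these 3 was called.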

How the data were processed

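Whole-kidney RNA for 7 libraries, 4 CDH11-/- and 3 CDH11+/+ by genotype label, was extracted with Trizol and a column and made into directional libraries (NEBNext Ultra II), per the labels' protocols. The authors deposited estimated counts per gene, here whole numbers, and a second table of normalized signal values that equal those counts times gene-specific factors of unstated origin. DRAGEN, DESeq2 and the mm10 build are listed, with no roles or versions, per the submitters' processing notes. For the annotation, the strand setting and any filters no statement was found.

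Symbols, biotypes and mm10 positions were taken from GENCODE M21, which matched 42170 of 42256 identifiers, and promoters from RefSeq (GRCm38.p6). Counts were filtered with filterByExpr, scaled by TMM and tested with edgeR 4.0.16 (robust quasi-likelihood, R 4.3.3), with Benjamini-Hochberg adjustment over all 17964 genes kept and calls at an adjusted p under 0.05. CPM uses TMM-scaled library sizes. TPM, from union exon lengths and without TMM factors, serves to rank genes and to give isoform shares within a library. Directions between groups rest on CPM and the fitted log2 fold changes. A standard error is the log2 fold change divided by the square root of F. Alternatives were 2 other scalings, 3 other gene filters, DESeq2 1.42.0, limma 3.58.1 with voom weights, limma on log2 of the deposited normalized signal plus 1, and the omission of each library. The fit was tested on simulated counts. All 21 pairs of libraries differed by more than counting noise (median chi-square per gene 2.71 to 13.04), and each was used as a sample. That does not show that each is a separate mouse. Pairs within CDH11-/- gave 2.71 to 4.35. Within CDH11+/+, replicates 1 and 2 gave 2.98, and replicate 3 gave 6.12 and 7.54 against them.

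Every called member was named apart from results not reported here, as were members not called with a mean of at least 5 CPM or alone in their role, and up to 3 called genes per list. The members and lists were chosen with earlier results of these data known.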

Additional observations from a re-analysis of the deposited data

Results flagged for a closer look

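In 3 of the 62 tested members a single knockout-labelled library lay far from the other 3 by Dixon's criterion, which chance meets in about 1 of 20 groups. Slc26a3 had 0.252 CPM in CDH11-/- replicate 2, against 0.0354, 0.0694 and 0.0376 CPM in the others of its group. Slc9a7, an exchanger of the Golgi network, had 3.3 CPM in CDH11-/- replicate 4, against 2.72, 2.68 and 2.6 CPM. Car8 had 4.16 CPM in CDH11-/- replicate 2, against 4.96, 4.97 and 4.89 CPM. None of these 3 genes was called.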

How the results depend on the processing

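Of the 20 called members 8 kept the call in all 15 alternatives and 12 lost it in at least 1. Of those not called 10 gained a call in at least 1, and no call changed direction. The median of all genes moved little under any scaling. Pump genes called lower numbered 2 under RLE, upper-quartile scaling, a mean of at least 1 CPM, protein-coding genes only, DESeq2 and voom, against 1, the second being Atp6v0d2. Slc9 genes called lower numbered 0 with the deposited normalized values, against 1. Leaving out 1 library gave 7 to 13 members higher and 1 to 10 lower. By family, the counts then ran from 1 to 3 (Slc26 higher), 0 to 1 (Slc26 lower), 0 to 1 (Slc4 higher), 1 to 4 (Slc4 lower), 0 to 1 (Slc9 lower), 1 to 4 (carbonic anhydrases higher) and 0 to 5 (pump lower). Fewer samples enter those fits, and the cause of the other shifts was not tested. No paired analysis was possible because the replicate numbers follow accession order and the labels pair no mice. Members under 1 CPM, such as Slc4a5, rest on few counts.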

Other observations

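Lysosomal genes, the organelle that the pump acidifies, rose in 6 of 12 and fell in 0, where 16.8% of all genes rose and 12.9% fell, with a median log2 fold change of 0.21 against -0.01 over all genes. Neu1, the lysosomal sialidase, averaged 268 ± 15.9 CPM (SD, n = 4) in knockout-labelled and 155 ± 24.5 CPM (SD, n = 3) in wild-type-labelled kidneys (log2 fold change 0.79, adjusted p = 0.000904, edgeR). The lysosomal membrane protein Lamp2 averaged 438 ± 31.2 and 334 ± 13.7 CPM (adjusted p = 0.0049, edgeR). Lysosome genes are expressed in proximal tubule cells, whose markers summed higher in the same libraries, and the part of this in the lysosome values was not tested.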
